A study of Mus musculus with 15 samples.

Results

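The genes described here are 5 members of the CCN family (*Ccn1* to *Ccn5*, older names *Cyr61*, *Ctgf*, *Nov*, *Wisp1* and *Wisp2*) and 5 genes of the YAP-TEAD axis (*Ankrd1*, *Amotl2*, *Yap1*, *Wwtr1* and *Tead1*). They are 10 of the 54232 genes in the table of counts, and all 10 passed the filter on low counts that left 22151 genes for testing. The list was chosen by the counts themselves: *Ccn1* was among the genes that differed most between E16.5 (embryonic day 16.5) and birth (P0). The values of P0 against E16.5 are therefore given as a description, with no test for any of the 10 genes, and *Ccn1* is not tested in any comparison that uses E16.5 or P0 libraries.

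Secondary palates of wild-type mice were sequenced as bulk RNA at 5 stages, in daily steps through E13.5 to E16.5 and then at P0, with no treatment and no altered allele in any group. Each stage had 3 libraries, and every library pooled the palates of 3 embryos, so that all errors below are a spread between pools. In such bulk tissue, fewer cells of a type and less RNA per cell cannot be told apart. The libraries held 21470759 to 69019565 counts, and E16.5 and P0 libraries were the shallower ones, with P0 library 3 the lowest.

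CCN proteins are secreted matricellular proteins: they sit in the extracellular matrix, bind integrins, proteoglycans and growth factors, and adjust how cells respond to them. YAP (gene *Yap1*) and TAZ (gene *Wwtr1*) are coactivators without a DNA-binding domain of their own. When the kinases of the Hippo cascade are inactive, both enter the nucleus and bind TEAD proteins, which recognise the word GGAATG, and *Ccn1*, *Ccn2*, *Ankrd1* and *Amotl2* are among the best known targets. In growing craniofacial tissue this axis is known for coupling mechanical load and cell contact to proliferation and to bone and cartilage formation.

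The RefSeq promoter table (GRCm38.p6) held a window for 5 of the 10 genes: *Ccn1*, *Ankrd1*, *Amotl2*, *Yap1* and *Wwtr1*. The 250 bases before each start were searched on both strands for GGAATG. All 5 genes held the word, against 12.6% of 32851 windows of the same length in the table. *Ankrd1* held it at 2 places, and 1.02% of windows held it at 2 or more. The *Wwtr1* match is counted once, although 2 of its starts share it. Neither the AP-1 word TGANTCA (6.75% of windows) nor the CArG box bound by SRF (1.47%) was found in any of these windows. In the GENCODE M21 annotation, the windows of *Ankrd1* and *Amotl2* overlap exons of the same gene, so short stretches are shown for them. The stretches around the matches of both genes overlap such exons too, in untranslated regions. In the annotation of the table of counts, the *Ankrd1* span ends at 36119844, next to its window, which starts at 36119845. The window of 1 *Wwtr1* start overlaps an own exon, away from the match, and that of *Yap1* an exon of another gene. These matches are letters in a window, and binding was not measured.

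The upstream window of *Ccn1* (chr3:145649986-145650235, minus strand) is shown whole, because *Ccn1* led the list. Capitals mark the word, which reads GGAATG on the opposite strand and lies 103 to 98 bases before the start.
Ccn1 upstream: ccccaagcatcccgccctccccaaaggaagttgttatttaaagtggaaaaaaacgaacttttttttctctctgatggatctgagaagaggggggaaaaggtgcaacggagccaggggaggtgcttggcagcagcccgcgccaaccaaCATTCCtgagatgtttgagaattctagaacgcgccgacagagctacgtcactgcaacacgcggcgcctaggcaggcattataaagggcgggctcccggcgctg

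The 6 places in the 5 genes are set side by side as 30-base stretches, each written on the strand on which it reads GGAATG (capitals), to show that the flanks differ between genes.
Ccn1, chr3:145650071-145650100, plus strand: tcaaacatctcaGGAATGttggttggcgcg
Ankrd1, chr19:36120037-36120066, minus strand: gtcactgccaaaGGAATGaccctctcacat
Ankrd1, chr19:36119950-36119979, minus strand: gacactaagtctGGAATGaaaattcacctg
Amotl2, chr9:102717727-102717756, minus strand: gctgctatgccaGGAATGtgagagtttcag
Yap1, chr9:8004720-8004749, minus strand: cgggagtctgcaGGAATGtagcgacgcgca
Wwtr1, chr3:57576029-57576058, minus strand: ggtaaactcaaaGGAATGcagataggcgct

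Before the levels, some libraries and 1 stage stood apart. The 11 neural tissue markers summed to 2879, 3350 and 6149 CPM (counts scaled to a common TMM-adjusted library total) in the E14.5 libraries, with library 1 the highest of all 15. Their sum was 891 to 2890 CPM at E13.5 and 837 to 1585 CPM at E15.5, so E14.5 and E15.5 did not overlap. E14.5 library 1 had the lowest value of its stage for 8 of the 10 genes and the highest for *Ccn5* and *Amotl2*. E13.5 library 2 had the highest neural sum of its stage (2890 CPM) and was likewise lowest for 8 of the 10 genes. The part of neural tissue in these values, and in the step from E14.5 to E15.5, was not tested. The 10 skeletal muscle markers summed to 36673 and 45135 CPM in P0 libraries 1 and 2 and to 7956 CPM in P0 library 3. Counts of 4 Y-linked genes summed to 7 to 12 in the E16.5 libraries, to 28 to 12808 at E13.5, 5818 to 12218 at E14.5, 20 to 11083 at E15.5 and 15 to 3109 at P0. Pools with next to no Y-linked counts thus stood at 4 of the 5 stages, all but E14.5, and made up all of E16.5. The part of sex in the results was not tested. All 12 palate mesenchyme markers were above 3 counts in every library.

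*Ccn1* and *Ccn2* were the most abundant CCN transcripts at birth and followed a like course. *Ccn1* (ENSMUSG00000028195.4, chromosome 3, 145646976 to 145649981 on GRCm38) encodes an early-response protein that supports cell adhesion and angiogenesis. It measured 35.9, 27.2 and 39.5 CPM at E13.5, 14.7, 28.0 and 34.1 at E14.5, 39.3, 36.7 and 38.7 at E15.5, 51.2, 39.6 and 43.6 at E16.5, and 210, 213 and 193 at P0. The P0 libraries lay close together and far above all 12 embryonic ones. The difference of P0 over E16.5 was 2.20 (log2, standard error 0.25), or 4.58-fold in CPM, and it is why the gene was listed. From E14.5 to E15.5, a comparison that uses neither stage, the 3 later libraries were all higher but the fitted log2 difference of 0.58 (SE 0.24) did not pass (edgeR, adjusted p = 0.0905).

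*Ccn2* (ENSMUSG00000019997.11, chromosome 10, 24595442 to 24598683) encodes connective tissue growth factor, which acts in cartilage growth and in fibrosis. Its levels were 47.0, 24.7 and 56.7 CPM at E13.5, 17.6, 39.6 and 53.1 at E14.5, 34.0, 57.5 and 53.0 at E15.5, 89.0, 70.7 and 81.3 at E16.5, and 221, 290 and 236 at P0. The 3 earliest stages overlapped, E16.5 lay above them, and P0 lay above E16.5. *Ccn2* rose from 42.8 ± 16.4 CPM at E13.5 to 249 ± 36.1 CPM at P0 (SD, n = 3; log2 2.54, SE 0.38, adjusted p = 0.000164). Between E16.5 and P0 the log2 difference was 1.63 (SE 0.37, no test). The step from E15.5 to E16.5 was 0.74 (SE 0.37) and did not pass (adjusted p = 0.261), although the libraries did not overlap. Within a stage, the order of the libraries by *Ccn2* was that of the summed cartilage markers in 4 of 5 stages, all but P0, and it was looked at among 7 such pairings. The cartilage sum was 1219 to 3288 CPM at E13.5 and 933 to 2427 CPM at P0, and the part of cartilage in the *Ccn2* levels was not tested.

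*Ccn3* and *Ccn5* both passed the test at the step from E14.5 to E15.5. *Ccn3* (ENSMUSG00000037362.8, chromosome 15, 54745702 to 54754039) encodes a protein known to oppose *Ccn2* in several tissues and to restrain osteoblast differentiation. It measured 4.41, 5.06 and 8.76 CPM at E13.5 and 8.46, 8.63 and 17.5 at E14.5. Then it stood at 61.5, 50.5 and 32.2 CPM at E15.5, 99.9, 90.9 and 73.6 at E16.5, and 95.9, 71.3 and 75.1 at P0. Every library from E15.5 on was above every earlier one, and E16.5 and P0 overlapped. *Ccn3* rose by 2.06 (log2, SE 0.34, adjusted p = 0.00221) from E14.5 to E15.5, and by 3.73 (SE 0.37, adjusted p = 1.08e-05) from E13.5 to P0. Osteoblast markers (8 genes) moved in that earlier step too, from a sum of 1004 to 2179 CPM at E14.5 to 14147 to 16393 CPM at E15.5, as did skeletal muscle markers, from 345 to 1696 CPM to 2501 to 6679 CPM. Their part in the rises of *Ccn3* and *Ccn5* was not tested.

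*Ccn5* (ENSMUSG00000027656.7, chromosome 2, 163820861 to 163833146) encodes the CCN protein that lacks the C-terminal cystine-knot domain. It was near the limit of detection at first, with 0.158, 0.141 and 0.193 CPM at E13.5 and 0.265, 0.151 and 0.253 at E14.5, from 10 to 18 counts a library. Levels were 0.961, 1.45 and 2.55 CPM at E15.5, 2.91, 2.46 and 4.89 at E16.5, and 7.88, 4.21 and 6.66 at P0. The first 2 stages did not overlap with any later one, while E15.5, E16.5 and P0 overlapped with their neighbours. *Ccn5* rose by 2.88 (log2, SE 0.42, adjusted p = 0.00122) from E14.5 to E15.5, a larger fitted step than that of any other of the 10 genes in this comparison. From E13.5 to P0 it rose by 5.23 (SE 0.47, adjusted p = 6.08e-06), from 0.164 ± 0.0267 to 6.25 ± 1.87 CPM.

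*Ccn4* (ENSMUSG00000005124.10, chromosome 15, 66891320 to 66923201), first known as a Wnt-induced gene, was highest at E15.5. It measured 46.6, 30.2 and 52.9 CPM at E13.5, 25.6, 50.5 and 59.1 at E14.5, 109, 80.9 and 81.9 at E15.5, 59.0, 68.1 and 84.1 at E16.5, and 73.6, 60.4 and 59.9 at P0. E15.5 was clear of both earlier stages but overlapped with E16.5. The rise from E14.5 to E15.5 was 1.01 (log2, SE 0.28, adjusted p = 0.0225). It did not hold in every fit: without E14.5 library 1, E14.5 library 2 or E15.5 library 1 it no longer passed (adjusted p from 0.0142 to 0.0792 over the 6 fits). Fewer of all genes passed there too, 2305 of 22824, 3221 of 22854 and 5325 of 23063, against 5746 of 22151 in the main fit. The osteoblast markers given beside *Ccn3* moved with *Ccn4* in this step, and their part in the result was not tested. They summed to 15019 to 35277 CPM at E16.5 and P0, where the means of *Ccn4* were below that of E15.5.

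**Figure D1:**
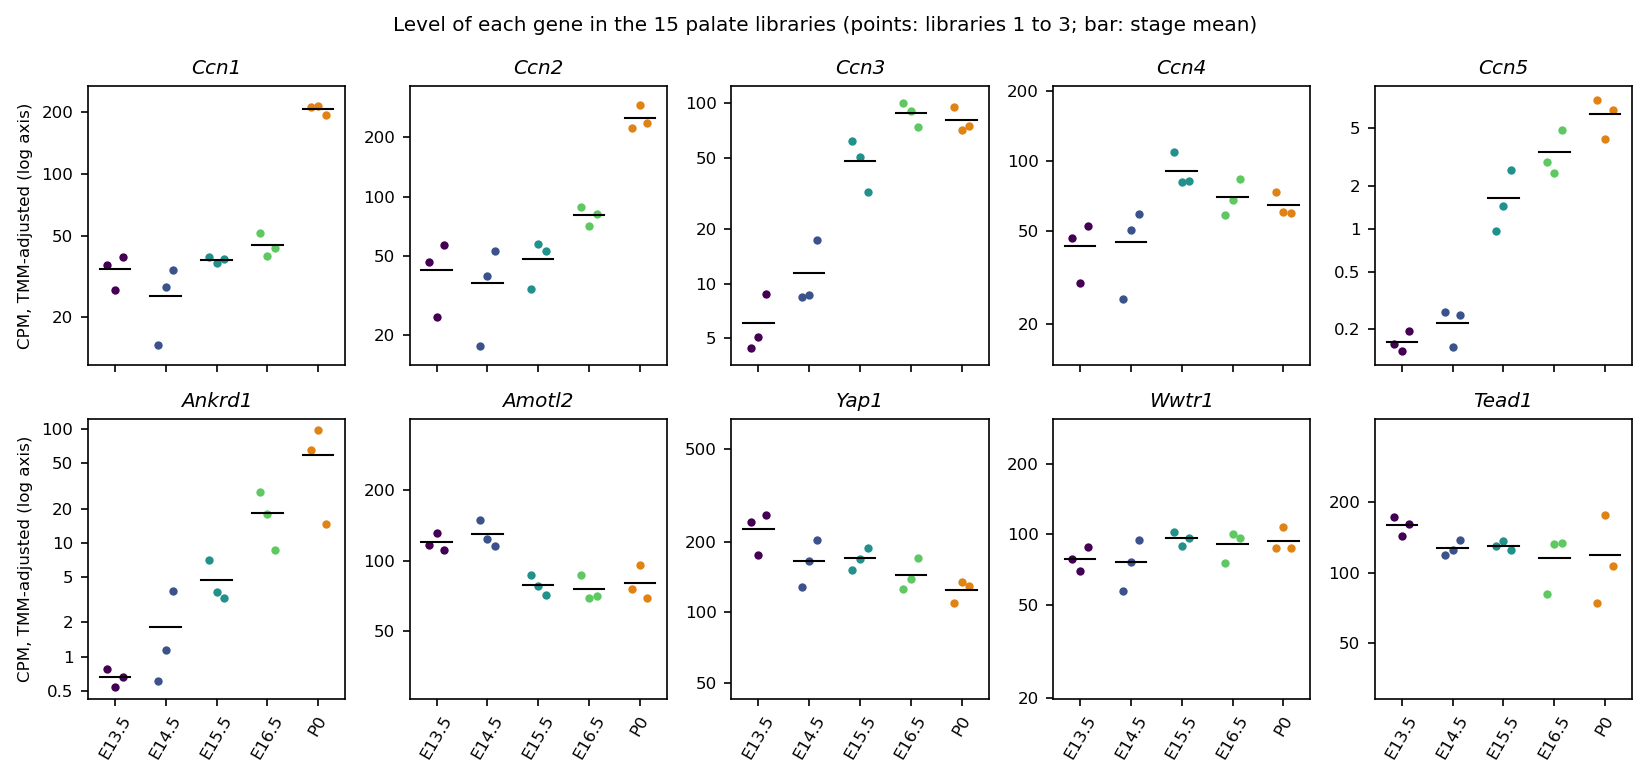
Level of each of the 10 genes in every library, in CPM on a log axis against stage; points are libraries 1 to 3 from left to right and bars are stage means. *Ccn1* and *Ccn2* are highest at P0, *Ccn3* and *Ccn5* stand higher from E15.5 on, and *Ankrd1* spans 0.535 to 97.7 CPM, while *Wwtr1* stays between 57.4 and 107 CPM.

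The CCN transcripts were also set beside each other per kilobase of exon. The length counts all annotated exons, whichever transcripts were expressed. On that scale their makeup differed between stages, which is given as a description. The E13.5 libraries had a summed level of *Ccn1* to *Ccn5* of 41.9 ± 11.5 CPM per kilobase, and the E14.5 libraries 37.7 ± 15.7 (SD, n = 3). The sum reached 69.7 ± 4.2 by E15.5, 95.4 ± 7.19 a day later and 232 ± 13.1 CPM per kilobase at birth. *Ccn1* took 41.3 ± 4.26% of the sum at E13.5, 23.2 ± 1.31% at E16.5 and 43.9 ± 0.859% at P0. *Ccn3* took the opposite course, with 5.12 ± 1.42%, 32.2 ± 4.15% and 12.2 ± 2.13% at the same stages. At E16.5 *Ccn3* was the leading CCN transcript in 2 of 3 libraries, at 30.7 ± 4.66 CPM per kilobase against 28.1 ± 3.21 for *Ccn2*, and these overlapped. *Ccn4* took 23.3 ± 3.32% of the sum at E15.5 and 5.02 ± 0.637% at P0, and *Ccn5* took at most 2.73% in any library.

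The ratio of *Ccn2* to *Ccn1* per kilobase was 1.23 to 1.32 in the 3 E16.5 libraries, above every library of the other stages (0.610 to 1.11). No test was made of this ratio, because it draws on *Ccn1* at E16.5. *Ccn6* (older name *Wisp3*), the remaining gene of the family, stayed between 0.0915 and 0.560 CPM, with 3 to 37 counts a library. At these counts it was lower at E15.5 than at E14.5 (log2 -1.15, SE 0.33, adjusted p = 0.0248) and at P0 than at E13.5 (log2 -1.29, SE 0.37, adjusted p = 0.0103). The former call was lost with no filter on low counts and without E14.5 library 1, E14.5 library 2, E15.5 library 2 or E15.5 library 3. The latter was lost with only the 6 libraries of the comparison. Fewer of all genes passed in each of these fits too.

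**Figure D2:**
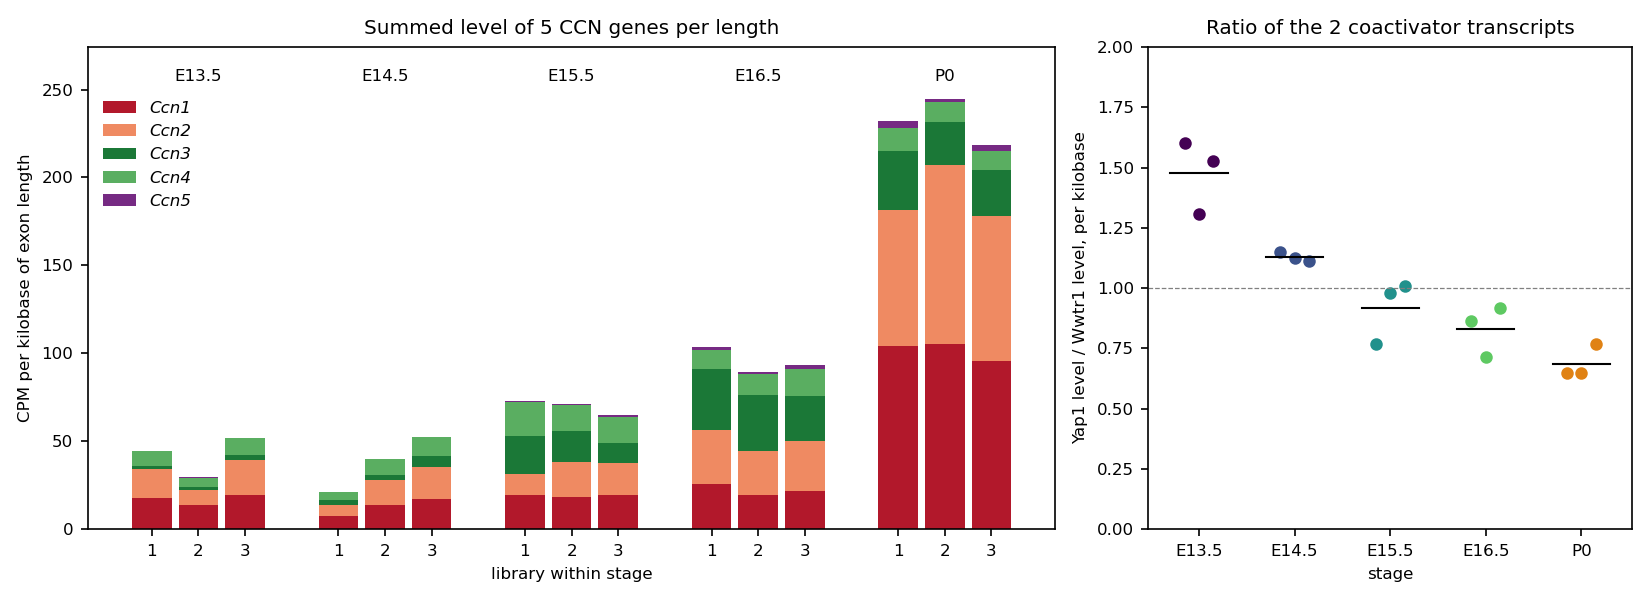
Left, stacked bars of the level of *Ccn1* to *Ccn5* per kilobase in each library; right, the ratio of *Yap1* to *Wwtr1* per kilobase, with points for libraries and bars for stage means. The summed CCN level is 232 CPM per kilobase at P0, mostly *Ccn1* and *Ccn2*, and the ratio goes from a mean of 1.48 at E13.5 to 0.69 at P0.

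*Ankrd1* and *Amotl2*, both textbook YAP targets, went opposite ways. *Ankrd1* (ENSMUSG00000024803.8, chromosome 19, 36111965 to 36119844) encodes an ankyrin repeat protein that binds titin in striated muscle and also enters the nucleus. It measured 0.774, 0.535 and 0.668 CPM at E13.5, 0.607, 1.14 and 3.75 at E14.5, 7.13, 3.71 and 3.31 at E15.5, 28.0, 17.9 and 8.69 at E16.5, and 66.3, 97.7 and 14.5 at P0. Libraries of 1 stage differed by up to 6.72-fold for this gene, and by at most 3.02-fold for any of the other 9. *Ankrd1* rose by 6.49 (log2, SE 0.89, adjusted p = 8.33e-05) from E13.5 to P0, the largest fitted difference of the 10 genes. No tested step between neighbouring stages passed with edgeR, and DESeq2 called the step from E15.5 to E16.5 (log2 1.95).

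The skeletal muscle markers moved with *Ankrd1* up to E16.5. Their sum was 335 to 631 CPM at E13.5, 345 to 1696 at E14.5, 2501 to 6679 at E15.5, 16667 to 47899 at E16.5, and 7956 to 45135 at P0, and all 10 markers were above 3 counts in every library. From E16.5 to P0 the muscle sums overlapped, and the highest was in an E16.5 library. Mean *Ankrd1* went from 18.2 to 59.5 CPM in that step, also with overlap. Within a stage, the order of the 3 libraries by *Ankrd1* was that of the muscle sum in 4 of 5 stages. P0 library 3, low in muscle markers, was also the lowest P0 library for *Ankrd1*. Without it the log2 difference from E13.5 to P0 was 6.99, and without P0 library 2 it was 5.95, the ends of the range over the fits that left out 1 library. The part of muscle in the result was not tested.

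*Amotl2* (ENSMUSG00000032531.15, chromosome 9, 102716672 to 102733418) encodes an angiomotin-like junctional protein that binds YAP and holds it in the cytoplasm. It measured 117, 132 and 111 CPM at E13.5, 150, 124 and 115 at E14.5, 86.9, 77.9 and 71.1 at E15.5, 86.8, 69.2 and 70.6 at E16.5, and 75.5, 95.9 and 69.6 at P0. All 6 libraries of the first 2 stages were above all 9 later ones. *Amotl2* fell by 0.72 on the log2 scale (SE 0.15, adjusted p = 0.00604) from E14.5 to E15.5 and by 0.58 (SE 0.15, adjusted p = 0.00574) from E13.5 to P0. The fall between E14.5 and E15.5 passed in each fit that left out 1 of the 6 libraries, with values from -0.81 to -0.61, the smallest without E14.5 library 1. The neural markers also went down in this step. The library with the highest neural sum was highest for *Amotl2* at E13.5, E14.5 and E15.5. At E16.5 that library was the lowest for *Amotl2*, and at P0 it was not the highest. Their part in the fall was not tested.

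**Figure D3:**
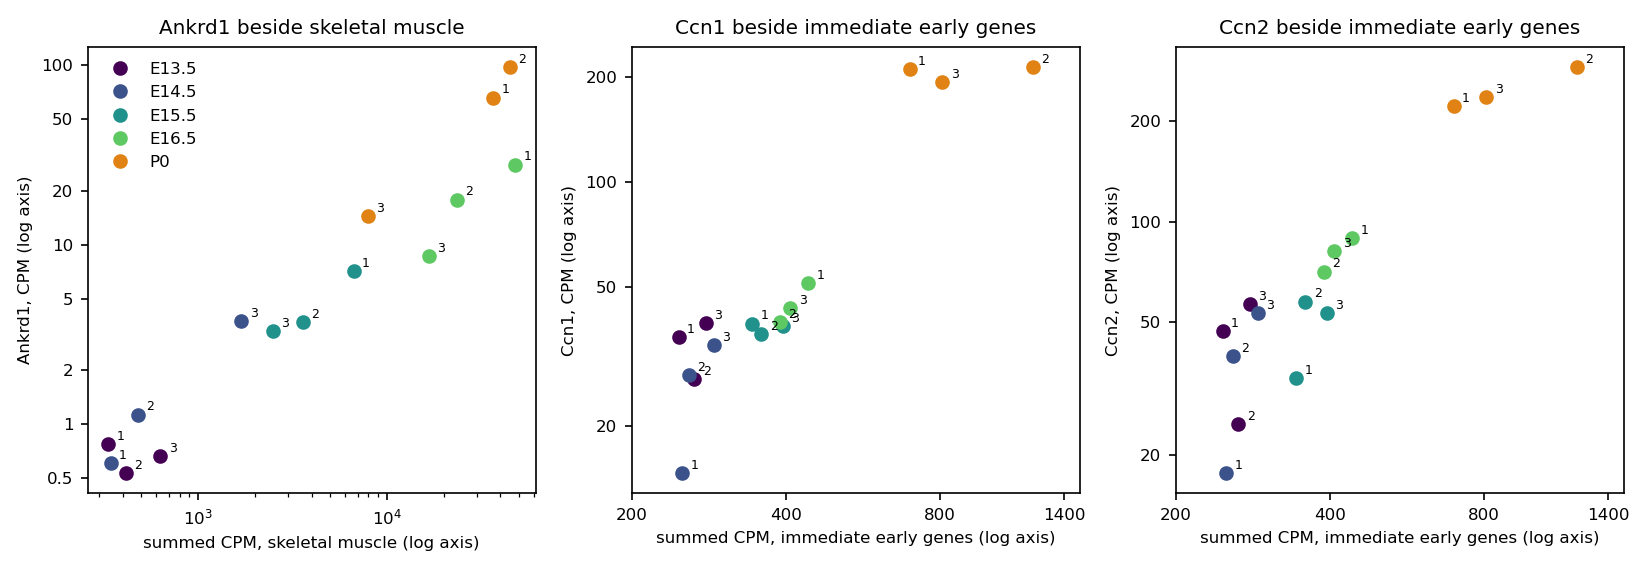
Each point is 1 library, numbered within its stage, with the level of *Ankrd1* against the summed skeletal muscle markers (left) and of *Ccn1* and *Ccn2* against the summed immediate early genes (middle and right), all in CPM on log axes. P0 library 3 has 7956 CPM of muscle markers and 14.5 CPM of *Ankrd1*, while it stands with the other P0 libraries for *Ccn1* and *Ccn2*.

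The coactivator transcripts kept to narrow ranges, with stage means that spanned 1.82-fold for *Yap1* and 1.26-fold for *Wwtr1*. *Yap1* (ENSMUSG00000053110.13, chromosome 9, 7931999 to 8004596) measured 243, 176 and 261 CPM at E13.5, 128, 167 and 204 at E14.5, 152, 169 and 189 at E15.5, 126, 139 and 170 at E16.5, and 110, 134 and 130 at P0. It fell from 227 ± 44.8 CPM at E13.5 to 125 ± 13.2 CPM at P0 (SD, n = 3; log2 -0.86, SE 0.19, adjusted p = 0.00235), and the 2 stages did not overlap, while each neighbouring pair in the order of levels did. *Wwtr1* (ENSMUSG00000027803.14, chromosome 3, 57455649 to 57575910) measured 78.4, 69.6 and 88.1 CPM at E13.5, 57.4, 76.4 and 94.9 at E14.5, 102, 89.3 and 96.6 at E15.5, 75.2, 101 and 96.1 at E16.5, and 87.5, 107 and 87.5 at P0. Its stages overlapped with their neighbours throughout, and P0 differed from E13.5 by 0.26 (log2, SE 0.18, adjusted p = 0.225).

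Per kilobase, *Yap1* exceeded *Wwtr1* in all 3 E13.5 libraries (ratios 1.60, 1.31 and 1.53) and was below it in all 3 P0 libraries (0.647, 0.647 and 0.767). Where the ratio crosses 1 depends on the lengths used, 9257 bases of annotated exons for *Yap1* and 4779 for *Wwtr1*. In CPM the lowest library for *Yap1* (110) was above the highest for *Wwtr1* (107). The E13.5 libraries had a mean ratio of 1.48 ± 0.155 and the E14.5 libraries one of 1.13 ± 0.0193 (SD, n = 3). Means of 0.919 ± 0.130 for E15.5, 0.830 ± 0.106 for E16.5 and 0.687 ± 0.0690 for P0 followed. P0 against E13.5 gave p = 0.1 in a two-sided exact permutation test, the smallest value that 3 libraries against 3 allow. The summed level of both was 41.0 ± 6.69 CPM per kilobase at E13.5 and 33.2 ± 3.48 at P0, and these overlapped.

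*Tead1* (ENSMUSG00000055320.17, chromosome 7, 112679318 to 112906807) encodes the DNA-binding partner of both. It measured 173, 144 and 162 CPM at E13.5, 119, 125 and 138 at E14.5, 130, 136 and 126 at E15.5, 81.2, 133 and 134 at E16.5, and 74.4, 176 and 107 at P0. The spread at P0 (119 ± 52.0 CPM) was the widest, with P0 library 2 above every other library and library 1 below. P0 against E13.5 gave -0.42 (log2, SE 0.26, adjusted p = 0.182). Without P0 library 2 it was -0.79 and passed (adjusted p = 0.0102). The E14.5 libraries were all below the E13.5 ones, with a log2 difference of -0.33 (SE 0.26) that did not pass (adjusted p = 0.587).

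Comparison by comparison, the calls fell unevenly. From E13.5 to E14.5, 0 of 10 genes passed with edgeR, where 0.00903% of all tested genes did. Before adjustment *Ccn3* and *Yap1* had p under 0.05, and DESeq2 also called 0 of the 10, where it called 4.51% of all genes. Here 1 gene, *Tead1*, did not overlap between the stages, where 29.2% of all genes did not. Between E14.5 and E15.5, 4 of 10 passed, with *Ccn3*, *Ccn4* and *Ccn5* higher and *Amotl2* lower, and 25.9% of all tested genes passed (12.6% higher and 13.4% lower). In the same comparison 5 of 10 did not overlap, *Ccn1* being the other one (51.3% of all genes). Without E14.5 library 3, 7 of 10 passed, *Ccn1*, *Ankrd1* and *Wwtr1* being added.

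From E15.5 to E16.5, 0 of 9 passed with edgeR, where 1.32% of all genes did. *Ccn3*, *Ccn5* and *Ankrd1* had p under 0.05 before adjustment, and DESeq2 called *Ankrd1*, 1 of 9, where it called 9.28% of all genes. Libraries of 4 genes, *Ccn1*, *Ccn2*, *Ccn3* and *Ankrd1*, did not overlap and were higher at E16.5 (15.7% of all genes). That count is also a description, because *Ccn1* was listed for a difference that uses E16.5 libraries. From E13.5 to P0, 6 of 9 passed, 4 higher (*Ccn2*, *Ccn3*, *Ccn5*, *Ankrd1*) and 2 lower (*Yap1*, *Amotl2*), where 56.5% of all genes passed (29.7% higher and 26.8% lower). These 6 held whichever of the 6 libraries was dropped. Of the 10 genes, 8 did not overlap between E13.5 and P0, all but *Wwtr1* and *Tead1* (59.1% of all genes). *Ccn1* is 1 of the 8 and was listed for its difference in P0 libraries, so this count is a description only. *Ccn4* gave 0.58 (log2, SE 0.28, adjusted p = 0.0971). Over all stages together 7 of 9 passed, all but *Wwtr1* (adjusted p = 0.307) and *Tead1* (0.479), where 58.9% of all genes did. The comparisons share libraries, so their calls are not independent of each other.

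Between E16.5 and P0, given as a description, 3 of the 10 genes had a fitted log2 difference of 1 or more: *Ccn1* (2.20), *Ankrd1* (1.71, SE 0.71) and *Ccn2* (1.63). Of all tested genes 5.97% had. *Ccn1* was listed for this difference, so this count and that of libraries without overlap are no independent evidence. *Ccn5* gave 0.87 (SE 0.38), and the other 6 genes lay between -0.22 (*Yap1*) and 0.09 (*Amotl2*). Libraries of *Ccn1* and *Ccn2* did not overlap between the stages, where 6.23% of all genes were higher without overlap, and those of *Ankrd1* did overlap.

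**Figure D4:**
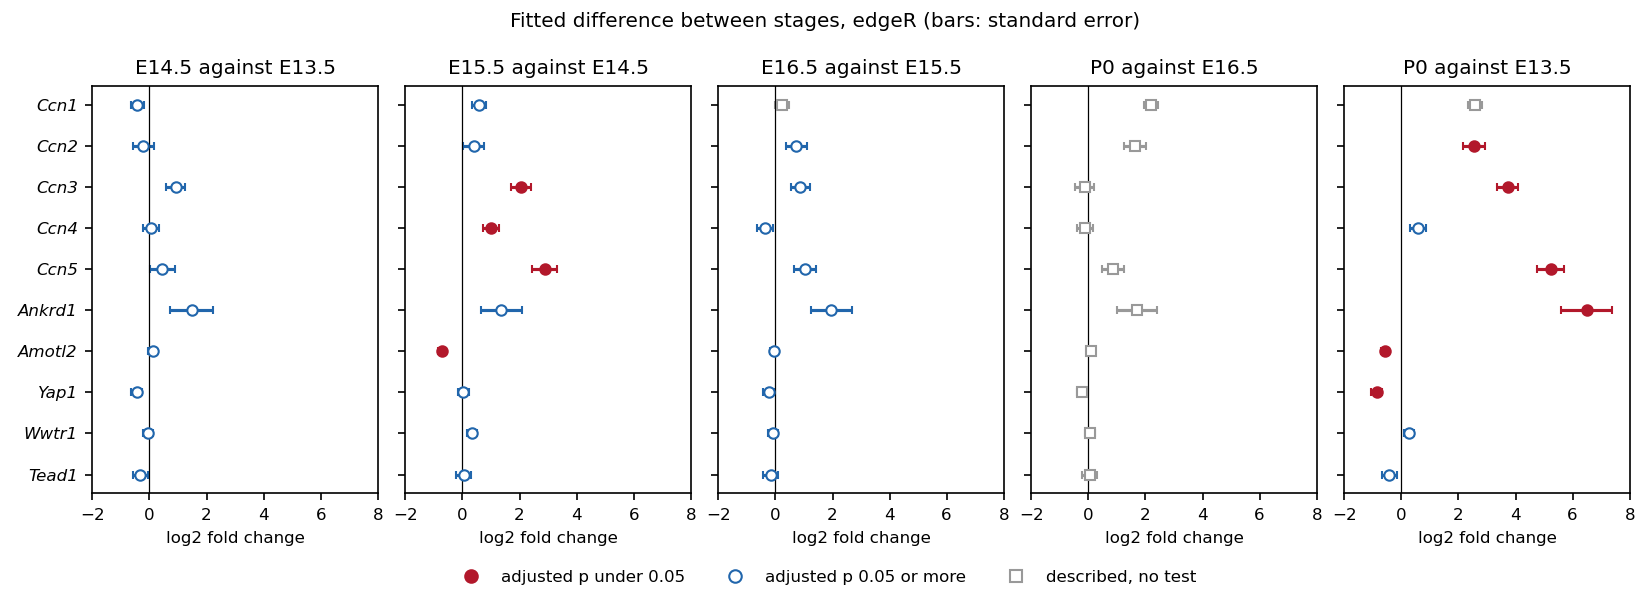
Fitted log2 fold change of each gene between stages with its standard error; red filled circles have an adjusted p under 0.05, open blue circles do not, and grey squares are described with no test. From E14.5 to E15.5 the red points are *Ccn3*, *Ccn4*, *Ccn5* and *Amotl2*, and *Ccn1*, *Ccn2* and *Ankrd1* lie at 1 or more from E16.5 to P0.

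The Hippo kinases restrain YAP and TAZ. The list of these kinases and their upstream regulators also holds genes that do not act in that direction, such as *Ajuba*. Of its 22 genes, 12 fell from E13.5 to P0, *Ajuba* among them, and 10 did not pass, where 26.8% of all tested genes fell. The median log2 of the 22 was -0.45, against 0.03 over all tested genes. *Fat4* and *Dchs1*, the paired giant cadherins at the top of the cascade, fell most, from 313 ± 65.9 to 83.3 ± 10.3 CPM (log2 -1.91, SE 0.24, adjusted p = 4.48e-05) and from 379 ± 47.9 to 111 ± 8.68 CPM (-1.77, SE 0.16, adjusted p = 6.23e-06). *Amot*, the angiomotin to which *Amotl2* is related, fell from 203 ± 55.0 to 67.1 ± 32.6 CPM (-1.60, adjusted p = 0.000559). Of the core kinases and their partners, *Stk3*, *Stk4*, *Lats1* and *Mob1a* were also among the 12. *Lats2* (log2 -0.13), *Mob1b* (-0.14) and *Sav1* (0.27) did not pass. The count was 6 of 22 without P0 library 1, and also 6 with only the 6 libraries of the comparison. Over all genes, 5123 of 23004 fell in the former fit and 4425 of 20120 in the latter, against 5932 of 22151 in the main fit. Palate mesenchyme markers were lower as well, with a sum of 882 to 1264 CPM at E13.5 and 351 to 489 CPM at P0, and their part in these falls was not tested. In the step to E15.5, 4 of 22 fell, where 13.4% of all genes did and the neural markers went down as well, the largest falls being *Taok3* (-0.93), *Dchs1* (-0.64) and *Taok2* (-0.44). That count was 0 without E15.5 library 3 and 1 without E14.5 library 1 or E15.5 library 2. Over all genes, 1363 of 22707, 1087 of 22824 and 1348 of 22732 fell in these fits, against 2960 of 22151 in the main fit.

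Of the 7 other TEAD and Vestigial-like genes, *Tead2* fell from 311 ± 35.9 CPM at E13.5 to 83.3 ± 20.3 CPM at P0 (log2 -1.90, SE 0.18, adjusted p = 9e-06). *Tead3* was at -0.55 (log2, adjusted p = 0.0492), a call at the threshold that was lost in 10 of the 15 fits leaving out 1 library (adjusted p from 0.0150 to 0.192) and with only the 6 libraries of the comparison. *Vgll2*, a TEAD cofactor of skeletal muscle, rose from 4.33 ± 2.10 to 31.5 ± 18.1 CPM (log2 2.86, SE 0.70, adjusted p = 0.0042), alongside the muscle markers above. The other 4 did not pass, so 3 of 7 did where 56.5% of all genes did, and the median of the 7 was -0.54.

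A published signature of YAP and TAZ targets, without the genes above, gave calls in both directions. Of its 16 genes, 5 rose and 2 fell from E13.5 to P0, where 29.7% of all genes rose and 26.8% fell, with a median of -0.04 against 0.03 over all tested genes. The largest were *Nt5e*, an ectonucleotidase (6.24 ± 3.62 to 48.3 ± 8.26 CPM, log2 2.95, adjusted p = 0.000223), *F3*, tissue factor (10.1 ± 2.67 to 73.5 ± 33.4 CPM, 2.86, adjusted p = 3.92e-05), and *Igfbp3* (138 ± 41.5 to 337 ± 42.4 CPM, 1.29, adjusted p = 0.00141). The total of 7 was 4 without P0 library 2, where 11546 of 22888 genes passed over all genes, against 12510 of 22151 in the main fit. The 9 oral epithelium markers summed to 268 to 616 CPM at E13.5 and 1033 to 3223 CPM at P0. Osteoblast markers summed to 1259 to 1924 CPM and 18244 to 35277 CPM at these stages, while palate mesenchyme markers, given above, were lower at P0. The part of these tissues in the calls was not tested. At E15.5 against E14.5, 4 rose and 1 fell (12.6% and 13.4% of all genes), among them *F3* (log2 1.18), *Myof* (0.94) and *Fjx1* (-1.04), and that total moved between 1 and 8 when 1 library was left out. It was 1 without E14.5 library 1, E14.5 library 2 or E15.5 library 2, and 8 without E14.5 library 3. Over all genes, 2305 of 22824, 3221 of 22854, 2942 of 22732 and 5785 of 22882 passed in these fits, in that order. In the main fit 5746 of 22151 passed. For P0 over E16.5 the median of the 16 was 0.16 and none reached 1.

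Immediate early genes, which answer growth factors and tissue stress quickly and to which *Ccn1* is often counted, stood much higher at P0. All 16 rose from E13.5 to P0, where 29.7% of all genes did (median log2 2.67), led by *Fosb* (5.47), *Atf3* (5.02) and *Fos* (4.90). This list was chosen knowing that *Fosb*, *Atf3* and *Ccn1* led the difference in the same P0 libraries, so its count there is no independent evidence. Their sum was 247 to 290 CPM at E13.5 and E14.5, 344 to 395 at E15.5, 389 to 442 at E16.5, and 699, 1215 and 809 CPM in P0 libraries 1 to 3. Between E16.5 and P0, 15 of 16 were higher in the fit and 10 reached a log2 of 1, where 5.97% of all tested genes did. The median of the 16 was 1.16, against 0 over all tested genes. For the same reason these counts are no independent evidence either. *Ccn1* was 210, 213 and 193 CPM in those P0 libraries, so the library with the highest sum was also highest for *Ccn1* and *Ccn2*, but *Ccn1* differed by far less than the sum. Library order by *Ccn1* was that of the sum in 2 of 5 stages, and by *Ccn2* in 3 of 5. The part of a general early response in the P0 levels of *Ccn1* and *Ccn2* was not tested.

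In the step to E15.5, a comparison without P0 libraries, 7 of the 16 immediate early genes rose, where 12.6% of all genes did, the largest being *Fos* (log2 1.74), *Ier3* (1.37) and *Fosb* (1.37). The count was 3 without E14.5 library 1 and 4 without E14.5 library 2 or E15.5 library 3. Fewer of all genes rose in these fits too, 1218 of 22824, 1424 of 22854 and 1615 of 22707 in that order. In the main fit 2786 of 22151 rose. The 9 SRF and MRTF targets, cytoskeletal genes that respond to actin assembly, included 7 that rose and 1 (*Flna*) that fell from E13.5 to P0, with a median of 1.91, where 29.7% of all genes rose and 26.8% fell. *Cnn1* (2.69), *Tagln* (2.59) and *Tpm1* (2.59) rose most. Several of these genes belong to smooth muscle. The 7 smooth muscle and pericyte markers summed to 306 to 375 CPM at E13.5, 313 to 406 at E14.5, 491 to 686 at E15.5, 1014 to 2349 at E16.5 and 779 to 2193 at P0. All 7 were above 3 counts in every library, and 1 of them (*Des*) is also a gene of skeletal muscle, whose markers are given above. The part of both in these rises was not tested. *Tagln* (1.26), *Myl9* (1.05) and *Vcl* (0.61) passed between E14.5 and E15.5, where 12.6% of all genes rose. This count of 3 was 1 without E14.5 library 1, E14.5 library 2 or E15.5 library 3, fits in which fewer of all genes rose, as given above. It was 5 without E14.5 library 3 or P0 library 2, and 6 with DESeq2, which called 32.5% of all genes. Between E15.5 and E16.5 *Tpm1* (1.81) and *Srf* itself (0.58) passed, where 1.32% of all genes did. Neither did with no filter on low counts, where 114 of 37998 genes passed. With only the 6 libraries of that step 0 of 20218 genes passed, so that fit called no gene at all. The count of 2 was also 0 without E13.5 library 1, E14.5 library 2, any of the 3 E15.5 libraries, E16.5 library 1 or E16.5 library 2. Over all genes 0 to 64 passed in those fits, against 292 in the main fit, so these losses are not particular to the 2 genes. Smooth muscle and skeletal muscle marker sums were both higher at E16.5 than at E15.5, and their part in this step was not tested. From E16.5 to P0 the median of the 9 was 0.17.

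**Figure D5:**
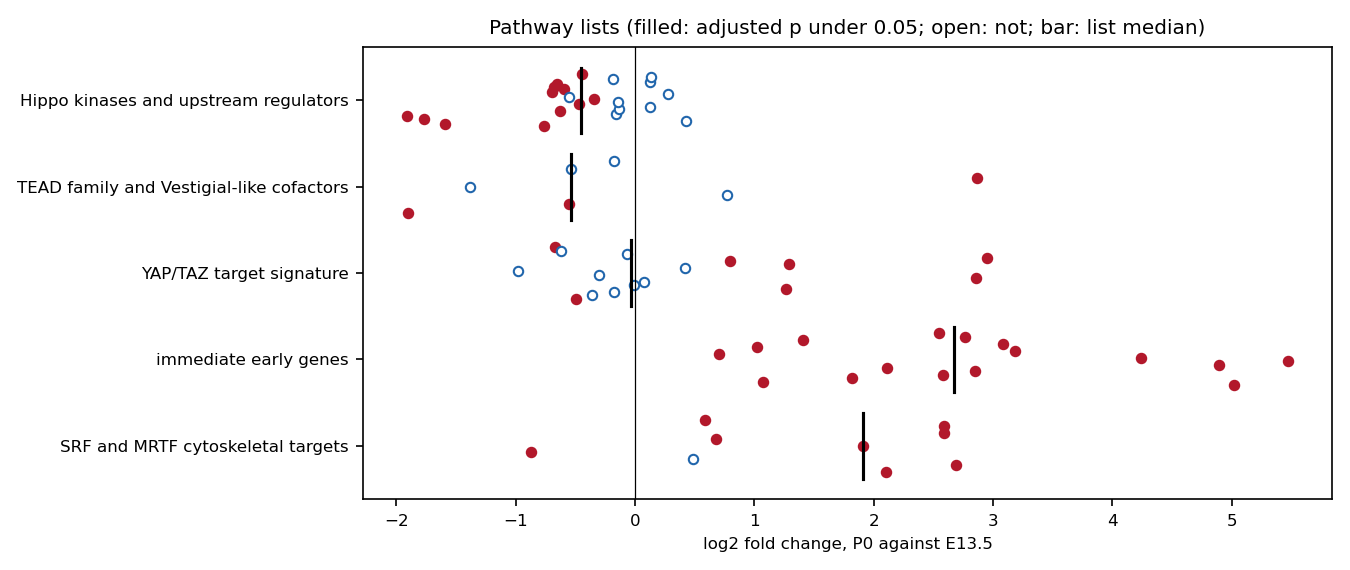
Log2 fold change from E13.5 to P0 of each gene in 5 pathway lists; red filled points have an adjusted p under 0.05, open blue points do not, and bars are list medians. The Hippo list lies mostly below 0 with 12 of 22 called, the YAP/TAZ signature is spread on both sides around -0.04, and all 16 immediate early genes lie above 0.

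The genes most like each of the 10 were taken by Pearson's r of log2 CPM over the 15 libraries, among 11855 genes of at least 10 CPM on average (11856 for *Ccn5*). These values describe a shared course over stages and libraries, which all points share. *Csrnp1* (0.961), *Ccn2* (0.959) and *N6amt1* (0.957) were most like *Ccn1*, and *Ccn1* (0.959), *4930523C07Rik* (0.955) and *Csrnp1* (0.945) were most like *Ccn2*. *Matn2*, *Htra1* and *Myl3* were most like *Ccn3* (0.983 to 0.986), and *Ogn*, *Elf4* and *Sec24d* most like *Ccn4* (0.964 to 0.965). *Ccl9* (0.991), *Galnt6* and *Spp1* were most like *Ccn5*. *Lmod2*, *Xirp1* and *Trim63*, all genes of striated muscle, were most like *Ankrd1* (0.978 to 0.984). *Tal1*, *Sfxn1* and *Bloc1s6* were most like *Amotl2* (0.960 to 0.966), *Rfc1*, *Dlg1* and *Nfatc3* most like *Yap1* (0.958 to 0.961), and *Tirap*, *Atxn1l* and *Cwf19l2* most like *Tead1* (0.939 to 0.955). *Sec24d*, *Mbnl2* and *Purb* were most like *Wwtr1* (0.893 to 0.909).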

How the data were processed

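Bulk RNA of 15 wild-type palate libraries was analysed from the authors' deposited table of raw counts per gene. Per the file headers, the authors counted fragments with featureCounts 2.0.1 on the reverse strand of GENCODE M18, and the submitters' processing notes list HISAT2 2.2.1, cutadapt 3.4 and mm10. Positions matched GENCODE M21 on GRCm38 for 97.7% of genes. Stages came from the labels. Counts were filtered (filterByExpr by stage, minimum count 10), TMM-normalized and modelled jointly, each stage with its own coefficient, by robust quasi-likelihood F tests in edgeR 4.0.16 under R 4.3.3, and Benjamini-Hochberg adjustment over 22151 genes at 0.05. Standard errors are the fold change over the root of F. The p-values measure the spread between pools. A level of 3 counts (0.0435 to 0.140 CPM) was taken as the detection floor, which covers counting error only. No member shares exons with a gene on its own strand, and *Ccn2* and *Yap1* overlap genes on the other strand. The members and the gene lists were chosen with earlier results of these data known. All 10 members are named, and from each list at most the 3 largest called changes per comparison. In addition *Stk3*, *Stk4*, *Lats1*, *Lats2*, *Mob1a*, *Mob1b*, *Sav1*, *Ajuba* and *Flna* were named after their values were seen. Neural tissue markers were added after seeing the data. The procedure was tested on simulated data. Alternatives were DESeq2 1.42.0, other size factors, other filters, 6 libraries only, a replicate block and leaving out each library.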

Additional observations from a re-analysis of the deposited data

How the results depend on the processing

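The number of the 10 genes past the threshold kept within 1.5 times its value under every alternative except 2. From E15.5 to E16.5 DESeq2 gave 1 where edgeR gave 0, and from E14.5 to E15.5 the count was 7 without E14.5 library 3 in place of 4; the cause was not tested. Leaving out 1 library gave 0 to 0 from E13.5 to E14.5, 3 to 7 from E14.5 to E15.5, 0 to 0 from E15.5 to E16.5, 6 to 7 from E13.5 to P0, 6 to 7 over all stages, and 3 to 4 genes at a log2 difference of 1 or more from E16.5 to P0. The replicate number as a block gave 0, 4, 0, 6 and 7 calls in the same order, and 3 genes from E16.5 to P0. Of 15 same-numbered pairs in neighbouring or compared stages 4 had a correlation of deviations over 0.1 (range -0.30 to 0.55). All 4 were library 3 with library 3, in each step between neighbouring stages (0.55, 0.21, 0.20 and 0.47). Pairs of unlike number reached 0.43. With the block, 131 of all tested genes passed from E13.5 to E14.5, against 2 without it. Whether the numbers stand for a shared origin or batch was not tested. Over all stages *Yap1* no longer passed without E13.5 library 1, E13.5 library 3 or P0 library 1, and *Ccn4* without E15.5 library 1. *Ccn4* from E13.5 to P0 passed without E14.5 library 1 (log2 0.57), and from E14.5 to E15.5 it did not pass with only the 6 libraries of the comparison (log2 1.02).

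Signs turned for 9 fitted differences when 1 library was left out, and 0 of them had passed. From E13.5 to E14.5 the ranges were -0.58 to 0.12 for *Ccn2*, -0.18 to 0.34 for *Ccn4*, -0.0015 to 0.19 for *Amotl2* and -0.23 to 0.13 for *Wwtr1*. With upper-quartile normalization *Ccn4* was at -0.0092 there. From E14.5 to E15.5 they were -0.13 to 0.20 for *Yap1* and -0.019 to 0.099 for *Tead1*, and from E15.5 to E16.5 -0.18 to 0.020 for *Amotl2*, -0.16 to 0.020 for *Wwtr1* and -0.29 to 0.015 for *Tead1*. Depth limits *Ccn5* before E15.5 and *Ccn6* throughout.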
